A study of Mus musculus with 12 samples.

Results

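The genes described here are 58 genes of nucleolar rRNA processing, ribosome assembly and RNA polymerase I. They come from a list of symbols chosen with earlier results of these data known. The symbols were matched to the Ensembl identifiers of the deposited table. All 58 were found among the 47643 genes of that table. Of these, 47 had enough reads to be tested and 11 did not, while 6676 genes were tested in all. Transcripts of the gastrocnemius (calf) muscle were read as tags near their 3' ends, in 6 female C57BL/6J mice aged 11 weeks. The genotype label was control for 3 animals and c-myc over-expression for the other 3, and the sources used here do not describe the construct, its promoter or the cells in which it is active. From each animal the left lower leg was left uncontracted and the right lower leg was contracted. This gave 4 groups of 3 libraries, called uncontracted control, contracted control, uncontracted Myc and contracted Myc, each library carrying its animal's number. Body side and contraction cannot be told apart, and no group comes from an untouched animal.

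The nucleolus is where RNA polymerase I transcribes the ribosomal RNA genes and where the precursor RNA is modified, cut and packed with ribosomal proteins into small and large subunits. Small nucleolar ribonucleoproteins (snoRNPs) guide the modification of the RNA, a large complex called the small-subunit processome starts the small subunit, and a separate series of assembly factors, GTPases and helicases builds the large subunit. MYC is a transcription factor well known for driving genes of this pathway, and a rise in ribosome production is a known early step of muscle growth after loading.

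MYC with its partner MAX is known to bind the E-box hexamer CACGTG, so the promoters of the genes were read for it. RefSeq promoters on GRCm38.p6, from 250 bases before to 50 bases after the gene's start, were at hand for 51 of the 58 genes (all but Rrs1, Gnl3l, Rrp12, Gnl2, Fbl, Bop1 and Npm1). The hexamer reads the same on both strands. It was found in 9 of these 51 (17.6%), against 8.09% of all 27025 genes with such an entry. Among tested genes it was found in 7 of 41 members (17.1%), against 12.7% of all 5285. It occurred 10 times in the 9 promoters, 7 of them in the bases after the start. The windows below show the hexamer in capitals. Wdr43 was chosen as the only gene of the 9 that passed a test. Tsr1, Nop2 and Mybbp1a were chosen because their contracted control libraries lay above all uncontracted control ones. Pes1 was chosen because it holds the hexamer nearest its start, and Rrn3 because it holds it in 2 places.
Wdr43, chr17:71616222-71616247, plus strand: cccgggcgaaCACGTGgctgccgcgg
Tsr1, chr11:74898094-74898119, plus strand: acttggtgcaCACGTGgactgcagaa
Nop2, chr6:125131813-125131838, plus strand: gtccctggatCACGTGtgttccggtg
Mybbp1a, chr11:72441357-72441376, plus strand: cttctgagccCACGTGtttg
Pes1, chr11:3963967-3963992, plus strand: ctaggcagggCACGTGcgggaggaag
Rrn3, chr16:13780474-13780499, plus strand: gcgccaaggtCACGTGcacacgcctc
Rrn3, chr16:13780641-13780666, plus strand: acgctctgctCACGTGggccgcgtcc
Ltv1, Pno1 and Utp20 hold the hexamer as well. A match is a description of the letters and not a measured site.

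Total counts ran from 1371732 to 1643216 per library, and 1 read was worth 0.609 to 0.783 CPM (counts scaled by TMM to a common library size). The 58 genes took 0.0953 to 0.183% of the reads of a library. Myc reads were set beside the labels. The uncontracted legs of control 1, 2 and 3 held 0, 1 and 0 of them, and those of the Myc animals held 11, 9 and 9. After contraction the same order of animals gave 1, 10 and 59 reads for control and 32, 0 and 2 for Myc. Libraries 2 and 3 of contracted control and of contracted Myc thus held Myc reads in an order opposite to their labels. Comparisons of the members that use them are also given without these 4, but not every gene, list or marker value is. The labels are kept as deposited. Whether contraction raised the muscle's own Myc was not tested, so these reads do not show that a label is wrong. A transgene without Myc's own 3' end would leave no tags here. No strand setting is stated, so reads of a gene and of an opposite-strand gene over its exons cannot be told apart. This holds for 20 of the 58 members: Polr1a, Taf1d, Npm3, Mybbp1a, Nop56, Rrp9, Dkc1, Nhp2, Wdr43, Heatr1, Nop14, Bysl, Pno1, Tsr1, Pes1, Bop1, Wdr12, Rrp1b, Gnl2 and Gnl3. All 11 markers of skeletal muscle fibres had reads in every group.

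The nucleolar genes were lowest in the uncontracted control legs. A score per library, the mean log2 CPM of the 47 tested genes minus the mean of the 12 libraries, was -0.290, -0.302 and -0.314 in uncontracted control 1, 2 and 3. It was 0.0684, 0.0553 and 0.00614 in uncontracted Myc, and those 3 values lay above all 3 of the control legs. In contracted control it was -0.109 in library 1 but 0.276 and 0.390 in libraries 2 and 3, the highest of the 12. In contracted Myc it was 0.161, 0.0555 and 0.00416, which overlaps the uncontracted Myc values. Of the 47 genes, 32 (68.1%) had their lowest level of all in an uncontracted control library and 0 their highest, where 26.6% and 25.2% of all tested genes did. The highest level fell in contracted control 3 for 11 genes, in contracted Myc 1 for 9 and in contracted control 2 for 8, that is 23.4, 19.1 and 17.0% of the 47, where 9.92, 7.94 and 6.92% of all tested genes were highest there.

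**Figure D1:**
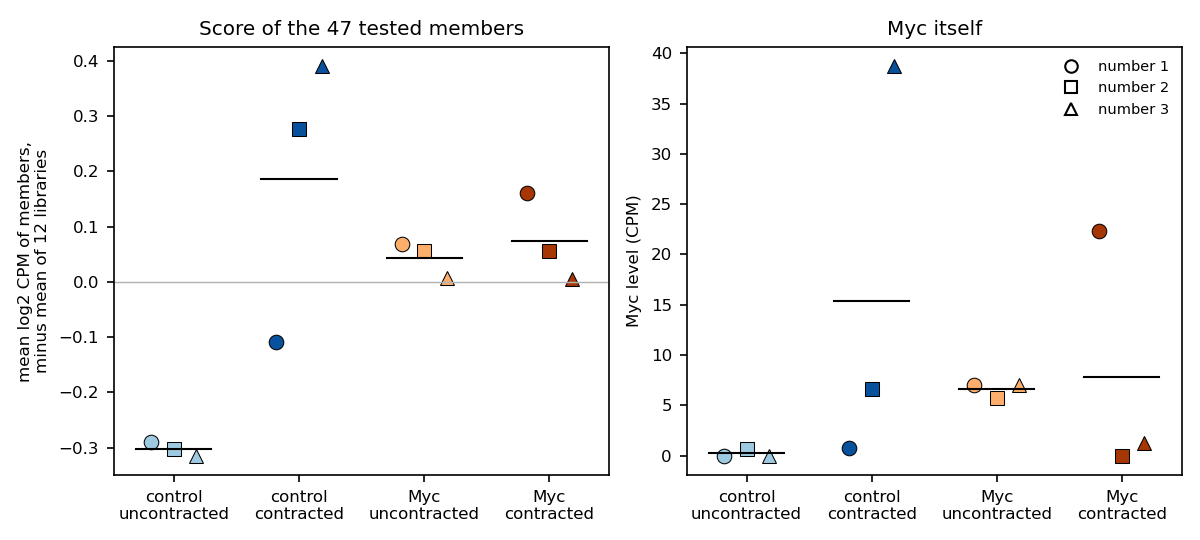
Left, score of the 47 tested nucleolar genes (mean log2 CPM minus the mean of the 12 libraries) and right, Myc level in CPM, by group, with 1 point per library, its shape giving the animal's number and the bar the group mean. Scores run from -0.314 in uncontracted control 3 to 0.390 in contracted control 3, which also holds the most Myc reads, but the order differs elsewhere: contracted Myc 1, second in Myc reads, scores 0.161, below the 0.276 of contracted control 2.

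**Figure D2:**
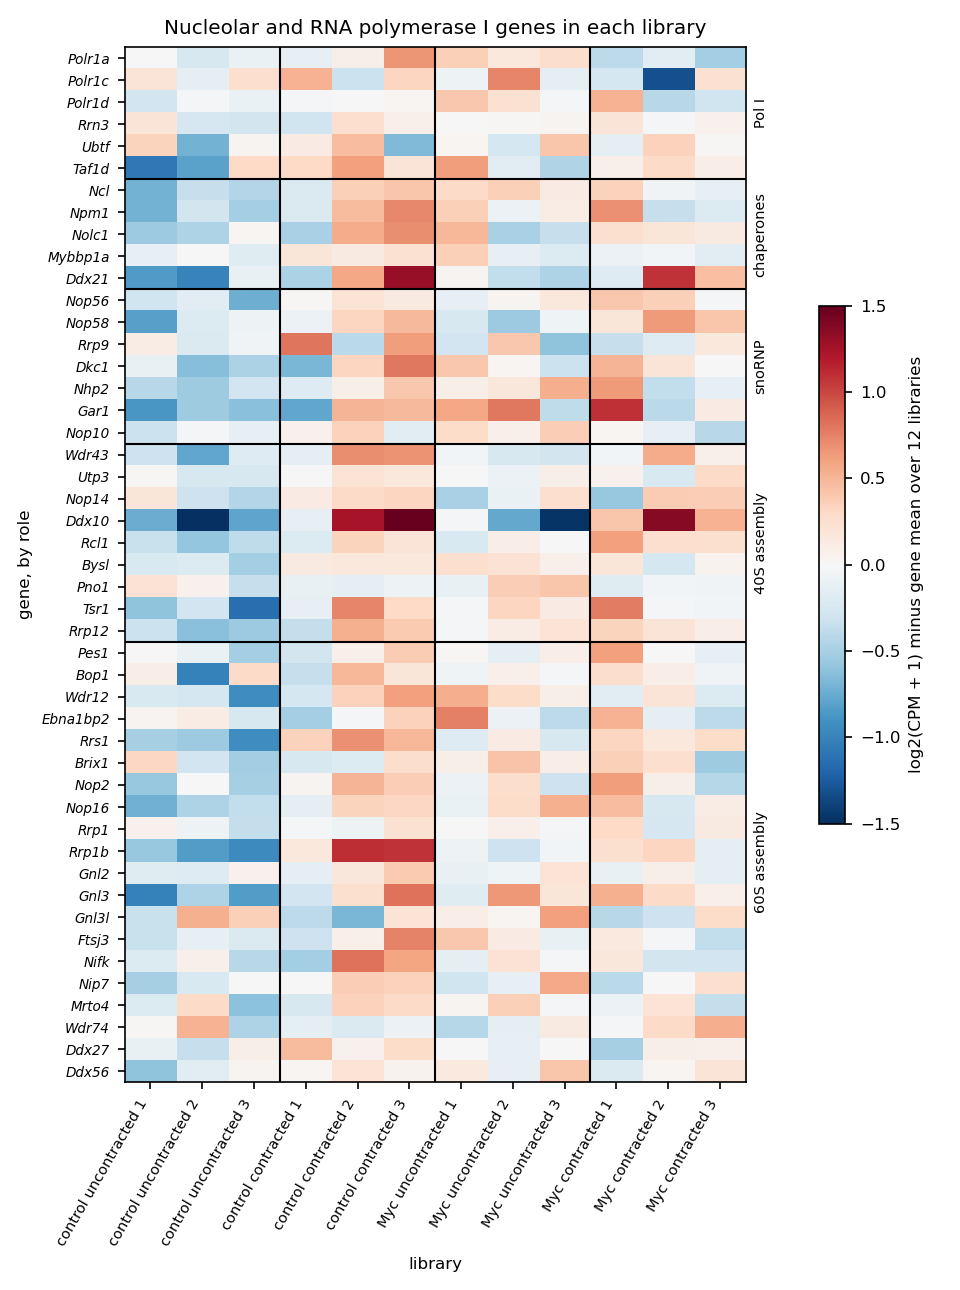
Level of each of the 47 tested genes (rows, by role) in each of the 12 libraries (columns, by group) as log2(CPM + 1) minus the gene's mean, with red above and blue below that mean. The 3 uncontracted control columns are mostly blue, and contracted control 2 and 3 and contracted Myc 1 mostly red, with Polr1c, Ubtf, Gnl3l and Wdr74 among the rows that do not follow.

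The uncontracted legs were compared to ask what added Myc does in resting muscle. No gene of the 47 passed edgeR's test, like 0% of all 6676 genes, and DESeq2 called 0 of the 47 as well. Of all 6676 genes 421 had an unadjusted p under 0.05, and of the 47 members 11 did, all of them higher in Myc. The median log2 difference was 0.37, against -0.01 over all tested genes, and 45 of the 47 were above 0 (49.3% of all tested genes were). Read without a filter on low counts, 50 of all 58 genes were above 0, with a median of 0.36. The Myc libraries lay above all 3 control libraries in 18 genes (38.3%) and below them in 0, where 7.26% and 5.57% of all tested genes did so. Marker sums of other lists were apart in the same comparison: fibroblast markers summed to 622 to 766 CPM in uncontracted Myc and 914 to 1556 in uncontracted control, macrophage markers to 121 to 132 and 148 to 210, lymphocyte markers to 3.19 to 7.05 and 9.29 to 10.9, and muscle fibre markers to 161550 to 165068 and 173488 to 189258. No marker gene passed the test, and their part in the nucleolar genes was not tested. The members that stood apart included Ncl, Npm1, Nhp2, Gar1, Rrp12, Tsr1, Bysl, Gnl3, Rrp1b and Wdr12. Without a filter on low counts Ncl (edgeR adjusted p = 0.00754) and Gnl3 (0.0441) passed, and Ncl passed without the 4 contracted libraries that went against their labels (0.0441), which enter only through the shared estimate of spread.

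Contraction in animals labelled control asks, by its labels, what contraction does without added Myc. However, contracted control 2 and 3 held 10 and 59 Myc reads. Of the 47 genes 7 rose, 0 fell and 40 did not pass, which is a share of 14.9%. Of all tested genes 2.38% rose and 0.419% fell, 2.8% in either direction. They were Rrp1b, Rrs1, Gnl3, Wdr43, Rrp12 and Ncl, and Ddx10, which passed the filter on low counts through contracted libraries alone and so had to differ. The median log2 change of the 47 was 0.52 against 0.01 over all tested genes, and over all 58 without a filter it was 0.47. The contracted libraries lay above all 3 uncontracted ones in 16 genes (34% against 9.68%) and below them in 0 (7.13% of all tested genes were). Contracted control 1 exceeded every uncontracted control library in 21 of the 47 genes (26.1% of all tested genes), and contracted control 2 and 3 each did in 38 (30.5% and 31.1% of all tested genes). The count of 7 was 2 without contracted control 2 or 3, 3 without uncontracted control 1, 2 or 3, and 12 without contracted control 1. Without the 4 contracted libraries numbered 2 and 3 it was 0 of 48 tested, 1 of which had an unadjusted p under 0.05, and the median was 0.20. That fit has 1 contracted library a genotype, assumed to vary like the other groups, so it had little power to call a gene.

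Contraction in animals labelled Myc gave 0 of 47 genes past edgeR's test, and DESeq2 called 0 as well. Of all tested genes 3.45% were higher and 0.449% lower (3.89% in either direction). An unadjusted p under 0.05 was found for 1066 of all 6676 tested genes and for 5 of the 47, a smaller share. The median log2 change was -0.03, and 23 genes were above 0. Contracted legs lay above all uncontracted legs in Nop58, Wdr43, Ddx10, Rcl1 and Rrs1 (10.6% against 10.3%) and below them in Polr1a and Nop10 (4.26% against 9.2%). Without a filter on low counts 2 genes passed. The median was 0.16 without the 4 contracted libraries numbered 2 and 3, and again 0 genes passed.

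The contraction effect averaged over both genotypes uses all 6 right and all 6 left legs. Its spread is still taken within the 4 labelled groups. Here 7 of the 47 genes rose and 0 fell, a share of 14.9%. Of all tested genes 5.71% rose and 1.77% fell, 7.47% in either direction. They were Rrp1b, Rrs1, Ddx21, Nop58, Wdr43, Rrp12 and Ddx10. Ddx10 passed the filter on low counts through contracted libraries alone and so had to differ, here and in the animals counted below. The median was 0.23 against -0.003 over all tested genes. Nop58, Wdr43, Ddx10, Rcl1 and Rrs1 were higher in the contracted leg of 6 of 6 animals, Gnl3l was lower in 6 of 6, and 6.86% and 5.08% of all tested genes did the same. DESeq2 called 4 of the 47. The count was 4 without contracted control 3 or contracted Myc 2 and 11 without contracted control 1. The fit without the 4 contracted libraries numbered 2 and 3 again has 1 contracted library a genotype and little power to call a gene.

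**Figure D3:**
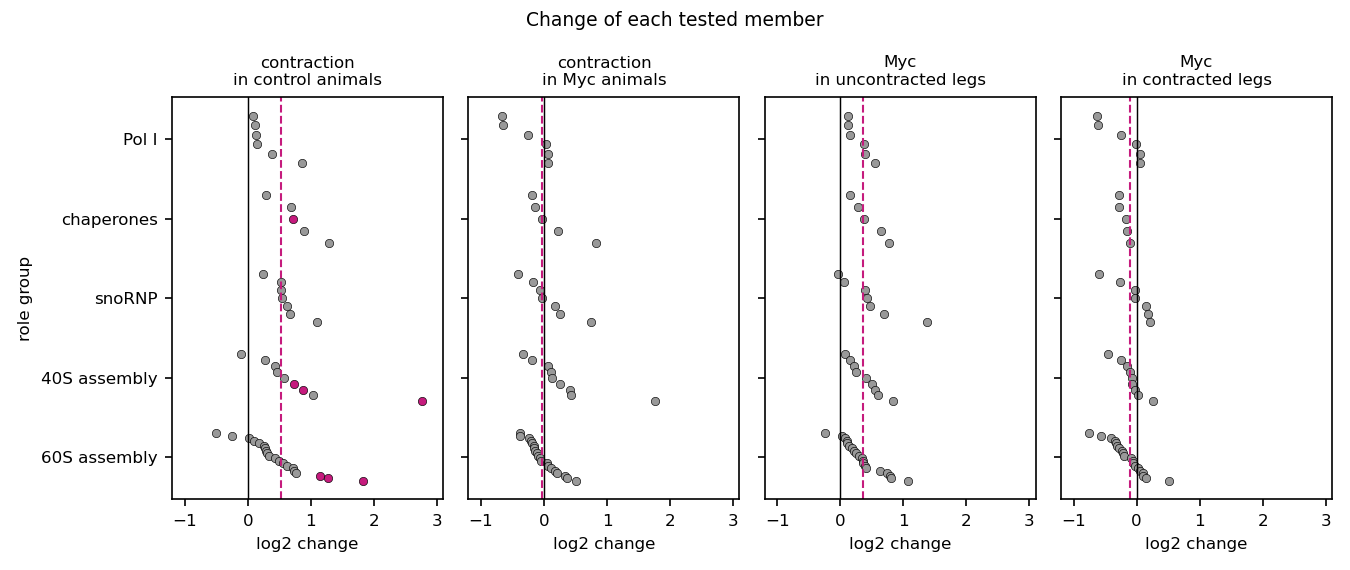
Log2 change of each tested gene (x axis) by role (y axis) in 4 comparisons, with genes that passed edgeR's test at an adjusted p under 0.05 in magenta, the others in grey, a solid line at 0 and a dashed line at the median of the 47 genes. Medians are 0.52 for contraction in control animals, -0.03 for contraction in Myc animals, 0.37 for Myc in uncontracted legs and -0.10 for Myc in contracted legs.

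RNA polymerase I and its factors held no gene that passed. All 6 tested genes of this role missed edgeR's test in each of the 6 comparisons (at most 1 had an unadjusted p under 0.05 in any), and DESeq2 called 0 of all members in the Myc comparisons, while 2 of the 8, the subunit genes Polr1b (89 reads over 12 libraries) and Polr1e (31 reads), were not tested. Polr1a, the gene of the largest catalytic subunit, stood at 18.7, 15.7 and 17.3 CPM in uncontracted control 1, 2 and 3 and at 17.0, 19.98 and 30.2 in contracted control. In uncontracted Myc it stood at 24.2, 21.0 and 22.7, and in contracted Myc at 14.0, 16.6 and 12.8. The contracted Myc values lay below all contracted control and all uncontracted Myc values and overlapped those of uncontracted control. The log2 difference between contracted Myc and contracted control was -0.63 ± 0.24 (SE), with an unadjusted p of 0.0163 and an edgeR adjusted p = 0.999. It was -0.36 without contracted control 3. Leaving out all 4 contracted libraries numbered 2 and 3 gave -0.27. The interaction was -1.02 ± 0.34 (edgeR adjusted p = 0.854).

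Rrn3, the initiation factor that recruits the polymerase, ran from 51.02 to 75.3 CPM over the 12 libraries, and its log2 difference was 0.10 for the averaged contraction (0.03 without contracted control 2, 0.16 without uncontracted control 1) and 0.12 for Myc in uncontracted legs. Ubtf, the factor that shapes active ribosomal DNA, ran from 9.54 to 22.6 CPM with differences of 0.06 and 0.12. Both ranges overlapped between all groups. Taf1d, a subunit of the promoter selectivity factor, was at 3.22, 4.09 and 9.91 CPM in uncontracted control and at 9.92, 12.7 and 9.18 in contracted control (log2 change 0.86 ± 0.40, edgeR adjusted p = 0.365). Polr1c and Polr1d, shared with RNA polymerase III, had log2 differences of 0.15 and 0.38 for Myc in uncontracted legs and of -0.27 and -0.05 for the averaged contraction. That of Polr1c ran from -0.53 without contracted Myc 3 to -0.08 without uncontracted Myc 2. The median of the 6 genes was 0.26 for Myc in uncontracted legs and 0.13 for contraction in control animals.

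Nucleolar chaperones and organisers had the highest role median for contraction in control animals, 0.71 over 5 tested genes. Ncl encodes nucleolin, an abundant RNA-binding protein of the nucleolus, and lies at chr1:86344719-86359400 on the minus strand. It stood at 64.4, 83.1 and 78.0 CPM in uncontracted control 1, 2 and 3 and at 130, 137 and 116 in uncontracted Myc. In contracted control it stood at 91.4, 136 and 142, and in contracted Myc at 135, 103 and 97.4. The uncontracted control legs were thus below all 9 other libraries. The log2 change with contraction in control animals was 0.71 ± 0.17 (edgeR adjusted p = 0.0225), and the difference with Myc in uncontracted legs was 0.76 ± 0.17 (unadjusted p = 0.000242, edgeR adjusted p = 0.314). Removal of uncontracted control 1 or 3, or of contracted control 2 or 3, ended the call of the control change (edgeR adjusted p = 0.0676 to 0.169). Its size fell to 0.28 when the 4 contracted libraries numbered 2 and 3 were left out (edgeR adjusted p = 0.961). Ncl gave an interaction of -0.91 ± 0.24 (edgeR adjusted p = 0.854).

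Npm1 encodes nucleophosmin, a chaperone of nucleolar assembly and subunit export, and went from 19.97, 27.3 and 22.9 CPM in uncontracted control to 42.7, 31.1 and 36.03 in uncontracted Myc. Those groups did not overlap, and the log2 difference was 0.65 ± 0.28 (edgeR adjusted p = 0.702). With contraction its control values were 28.3, 46.6 and 55.1 CPM (0.90 ± 0.27, edgeR adjusted p = 0.0957). Npm1 has processed pseudogene copies, so its counts are uncertain. Ddx21, a nucleolar RNA helicase gene, gave a different order of libraries. It stood at 12.9, 11.58 and 22.3 CPM in uncontracted control and 24.9, 18.4 and 17.2 in uncontracted Myc, against 17.0, 36.6 and 61.0 in contracted control and 21.0, 52.2 and 33.5 in contracted Myc. Its level was thus highest in the 4 contracted libraries numbered 2 and 3, in those with 10 and 59 Myc reads and in those with 0 and 2 alike. The averaged contraction change was 1.05 ± 0.26 (edgeR adjusted p = 0.0141), with 0.0616 without contracted control 3, 0.0625 without contracted Myc 2 and 0.991 (log2 change 0.08) without those 4 libraries. Nolc1, a snoRNP chaperone gene, ranged from 12.2 to 30.2 CPM and Mybbp1a, a gene of a nucleolar transcription regulator, from 32.9 to 49.1. Npm3 had 74 reads in all and was not tested.

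Among the snoRNP proteins, Nop58 rose with contraction and the H/ACA genes were higher in uncontracted Myc legs without passing. Nop58 (chr1:59684971-59719044, plus strand) is a core protein of the box C/D particles that guide ribose methylation. It stood at 10.3, 16.4 and 17.96 CPM in uncontracted control and at 15.9, 12.7 and 18.02 in uncontracted Myc. After contraction it was at 17.7, 24.0 and 26.9 in control and at 21.7, 30.1 and 25.6 in Myc. The contracted leg was higher in each animal, by 0.68 ± 0.18 on the log2 scale averaged over genotypes (edgeR adjusted p = 0.0185). This did not pass without uncontracted control 1, contracted control 3, uncontracted Myc 2 or contracted Myc 2 (edgeR adjusted p = 0.063 to 0.067), by DESeq2 (adjusted p = 0.057), or without the 4 contracted libraries numbered 2 and 3 (0.849, log2 change 0.37). Its difference with Myc in uncontracted legs was 0.05. Its partner gene Nop56 had 0.39 and 0.43 for those comparisons, neither past the test.

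Dyskerin, the pseudouridine synthase of the H/ACA particles, is encoded by Dkc1, which ranged from 59.5 CPM in contracted control 1 to 167 in contracted control 3. Its log2 change in control animals was 0.67 ± 0.26 (edgeR adjusted p = 0.243). Nhp2, a second H/ACA protein gene, stood at 36.1, 33.4 and 39.6 CPM in uncontracted control and at 51.7, 54.7 and 71.3 in uncontracted Myc, with no overlap (0.69 ± 0.23, edgeR adjusted p = 0.564). Gar1 had 11 reads in the uncontracted control legs and 28 in the uncontracted Myc legs (1.38 ± 0.58, edgeR adjusted p = 0.702), and Nop10 differed by 0.40 ± 0.16 (edgeR adjusted p = 0.695). All 3 of these genes had separate groups. For Gar1 the gap was narrow: uncontracted control 2 and 3 and uncontracted Myc 3 each held 4 reads (2.73, 2.48 and 3.13 CPM). Fbl, the methyltransferase gene of the box C/D particles, had only 28 reads in 12 libraries and was not tested. Rrp9, a gene of the snoRNP that acts in the small-subunit processome, ranged from 3.92 to 12.05 CPM and overlapped between groups.

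Small-subunit genes gave 3 of 9 tested members that rose, both in control animals and in the averaged contraction, namely Ddx10, Wdr43 and Rrp12 (2.38% and 5.71% of all tested genes rose). Ddx10, an RNA helicase gene (chr9:53098635-53248053, minus strand), was read at low depth. It had 3, 1 and 3 reads in uncontracted control libraries 1, 2 and 3. Contracted control held 5, 16 and 27 reads. There were 6, 3 and 1 in uncontracted Myc and 8, 19 and 10 in contracted Myc. All contracted legs had more reads than the uncontracted legs of the same genotype. The averaged log2 change was 2.26 ± 0.44 (edgeR adjusted p = 0.00157), and the control change of 2.77 ± 0.62 (edgeR adjusted p = 0.013) did not pass without uncontracted control 2 (0.0754) or contracted control 3 (0.163). Ddx10 reached the minimum for testing through contracted libraries alone, and after removal of the 4 numbered 2 and 3 it was not among the genes tested.

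Wdr43 (chr17:71615895-71659031, plus strand) encodes a protein of the small-subunit processome, and its promoter holds the E-box printed above. It stood at 74.1, 53.2 and 80.5 CPM in uncontracted control and at 83.6, 150 and 148 in contracted control. In Myc animals it went from 89.3, 77.5 and 76.0 to 89.4, 136 and 96.8. All contracted legs exceeded the uncontracted legs of their genotype, though contracted control 1 and contracted Myc 1 did so only narrowly. The averaged log2 change was 0.64 ± 0.15 (edgeR adjusted p = 0.00686, and at most 0.03 without any single library), and 0.21 without the 4 contracted libraries numbered 2 and 3 (0.89). The control change was 0.87 ± 0.21 (edgeR adjusted p = 0.0195), and removal of uncontracted control 1 or 2, or of contracted control 2 or 3, ended the call (0.0535 to 0.142). Its Myc difference in uncontracted legs was 0.22 (edgeR adjusted p = 0.925).

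Rrp12, a gene of small-subunit maturation and export (chr19:41862851-41896173, minus strand), had separate genotype groups in uncontracted legs but overlapping contraction groups in controls. Its levels were 62.5, 50.4 and 53.3 CPM in uncontracted control, 76.6, 84.5 and 90.1 in uncontracted Myc, 60.9, 113 and 103 in contracted control and 98.5, 89.6 and 84.0 in contracted Myc. The log2 change in controls was 0.74 ± 0.19 (edgeR adjusted p = 0.0288) and the averaged change 0.43 ± 0.13 (edgeR adjusted p = 0.0455). With the animal as a block they did not pass (0.0878 and 0.0955), and by DESeq2 the averaged change had adjusted p = 0.0809. It passed in 1 of the 12 fits without a single library, that without contracted control 1 (0.0582 to 0.158 in the others). The control change did not pass without any single uncontracted control library or without contracted control 2 or 3 (edgeR adjusted p = 0.0514 to 0.237). Both changes also failed the test without the 4 contracted libraries numbered 2 and 3 (log2 0.13 and 0.19). The Myc difference in uncontracted legs was 0.59 ± 0.19 (unadjusted p = 0.00469, edgeR adjusted p = 0.564).

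Tsr1 and Bysl, genes of late small-subunit maturation, showed the same separation of the uncontracted control legs. Tsr1 stood at 12.9, 16.4 and 8.67 CPM there and at 19.8, 25.4 and 21.9 in uncontracted Myc (0.83 ± 0.30, edgeR adjusted p = 0.591). Bysl stood at 33.5, 34.1 and 27.2 CPM and at 47.2, 45.8 and 41.5 (0.51 ± 0.17, edgeR adjusted p = 0.564). Rcl1, whose product acts in cleavage of the precursor RNA, was higher in the contracted leg of each animal, with an averaged log2 change of 0.51 ± 0.16 (edgeR adjusted p = 0.0622). Pno1, which encodes the partner of the final small-subunit nuclease, was lower in the contracted leg of 5 of 6 animals, at -0.22 on the log2 scale (edgeR adjusted p = 0.475). Utp3 and Nop14, processome genes, had averaged changes of 0.17 and 0.35 that did not pass. Wdr75, Heatr1, Utp15, Utp20, Ltv1 and Nob1, with 8 to 89 reads each over 12 libraries, were not tested.

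Large-subunit genes gave 3 of 20 tested members that rose in control animals (Rrp1b, Rrs1 and Gnl3) and 2 in the averaged contraction (Rrp1b and Rrs1). Of all tested genes 2.38% and 5.71% rose in these comparisons, so the averaged count is not far from that of all genes. Rrp1b (chr17:32036100-32062865, plus strand) encodes a nucleolar protein of early large-subunit processing. Its levels were 5.15, 4.09 and 3.72 CPM in uncontracted control, 9.21, 18.7 and 18.4 in contracted control, 7.66, 6.36 and 7.83 in uncontracted Myc and 9.78, 10.4 and 7.30 in contracted Myc. The uncontracted control legs were below all 9 other libraries, but held only 8, 6 and 6 reads of Rrp1b, under the count minimum for testing. The control change was 1.82 ± 0.35 on the log2 scale (edgeR adjusted p = 0.00304) and the averaged change 1.08 ± 0.25 (edgeR adjusted p = 0.00712). Of the control calls, only that of Rrp1b held in each of the 12 fits without a single library (at most 0.0282). It did not hold without the 4 contracted libraries numbered 2 and 3 (1.07, edgeR adjusted p = 0.888). The difference between contracted Myc and contracted control was -0.75 ± 0.30 (edgeR adjusted p = 0.999) and turned to 0.10 without those 4. An exon of Hsf2bp lies on the opposite strand of Rrp1b. Its paralogue Rrp1 differed by 0.12 in the averaged contraction and by 0.13 with Myc in uncontracted legs.

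Rrs1, a regulator of early large-subunit assembly (chr1:9545408-9547455, plus strand), was the only one of the 47 whose 6 contracted legs all lay above all 6 uncontracted legs, which 2.95% of all tested genes did. Its levels were 7.09, 6.81 and 4.95 CPM in uncontracted control and 8.93, 11.4 and 8.62 in uncontracted Myc. They were 13.5, 17.3 and 15.1 in contracted control and 13.3, 11.67 and 12.8 in contracted Myc. The uncontracted control legs were thus below all other libraries. The Myc difference in uncontracted legs was 0.63 ± 0.31 (edgeR adjusted p = 0.785). The averaged log2 change was 0.82 ± 0.20 (edgeR adjusted p = 0.00952, and at most 0.0326 without any single library), while DESeq2 gave adjusted p = 0.0719. Leaving out the 4 contracted libraries numbered 2 and 3 gave 0.77 (edgeR adjusted p = 0.457). The control change of 1.28 ± 0.28 (edgeR adjusted p = 0.0113) did not pass without uncontracted control 3 (0.0749) or contracted control 2 (0.0723), or by DESeq2 (adjusted p = 0.0874).

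Gnl3 encodes nucleostemin, a nucleolar GTPase (chr14:31012433-31019152, minus strand). It stood at 10.3, 15.7 and 11.8 CPM in uncontracted control, 17.7, 26.0 and 39.3 in contracted control, 19.1, 35.0 and 25.1 in uncontracted Myc and 32.1, 27.0 and 23.1 in contracted Myc. As with Ncl, Rrp1b and Rrs1, the uncontracted control legs were below all other libraries. Its control change was 1.15 ± 0.30 (edgeR adjusted p = 0.0386) and its Myc difference in uncontracted legs 1.07 ± 0.30 (unadjusted p = 0.00192, edgeR adjusted p = 0.541). The control change did not pass without any single uncontracted control library or without contracted control 2 or 3 (edgeR adjusted p = 0.0553 to 0.336), and was 0.49 without the 4 contracted libraries numbered 2 and 3 (0.961). Exons of Gnl3 overlap those of Pbrm1 on the opposite strand. The related gene Gnl3l was lower in the contracted leg of 6 of 6 animals, at -0.45 on the log2 scale (edgeR adjusted p = 0.277), while Gnl2 differed by 0.10.

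The other large-subunit genes did not pass. Nop16 stood at 12.9, 15.7 and 16.7 CPM in uncontracted control against 20.4, 26.7 and 32.1 in uncontracted Myc (0.79 ± 0.25, edgeR adjusted p = 0.564). Pes1, Bop1 and Wdr12 encode the 3 proteins of the PeBoW complex, which is needed to process the large-subunit RNA. Of these, Wdr12 differed by 0.81 ± 0.27 with Myc in uncontracted legs (edgeR adjusted p = 0.564), and Pes1 and Bop1 by 0.19 and 0.10. Nop2, an rRNA methyltransferase gene, went from 7.09, 10.9 and 7.43 CPM to 11.3, 16.0 and 14.4 with contraction in control animals (0.72 ± 0.32, edgeR adjusted p = 0.336). Over Nifk, Ftsj3, Nip7, Mrto4, Brix1, Ebna1bp2, Wdr74, Ddx27 and Ddx56, averaged contraction changes ran from -0.09 (Ebna1bp2) to 0.24 (Nifk). Wdr74 was the only tested large-subunit gene below 0 with Myc in uncontracted legs, at -0.24. Ddx18 had 80 reads and was not tested.

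**Figure D4:**
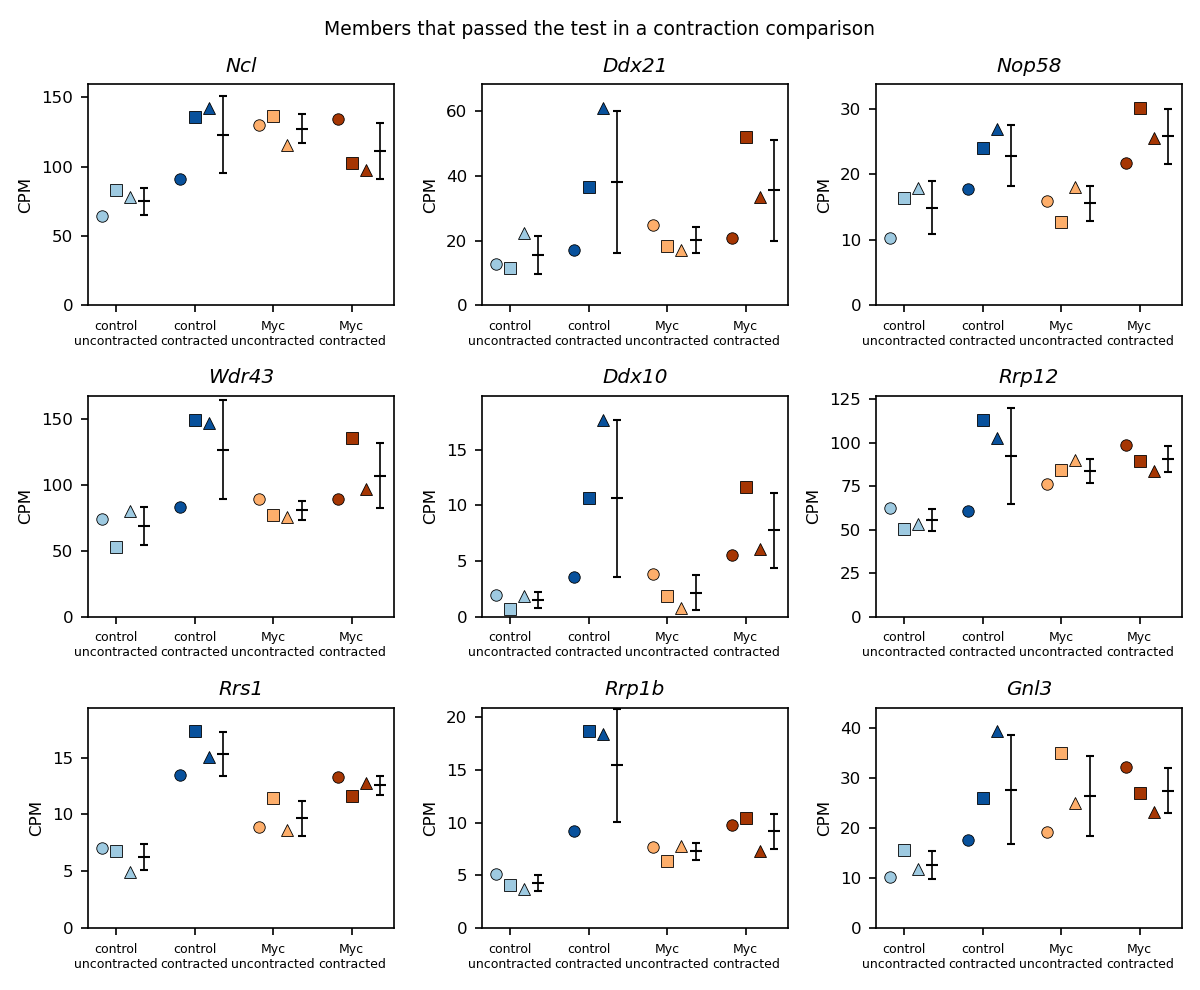
Level in CPM (y axis from 0) of the 9 genes that passed edgeR's test in the control or the averaged contraction comparison, by group, with 1 point per library, its shape giving the animal's number (circle 1, square 2, triangle 3), and the mean ± SD of 3 libraries beside them. In Ncl, Rrp1b, Gnl3 and Rrs1 the 3 uncontracted control points lie below all others. In Rrs1 the 6 contracted points also lie above all 6 uncontracted ones.

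In contracted legs the labels Myc and control were compared to ask whether Myc adds to contraction. No gene of the 47 passed (0% of all tested genes did), and DESeq2 called 0. Of all 6676 tested genes 204 had an unadjusted p under 0.05, and of the 47 members 2 did, both lower in Myc. The median was -0.10, and groups did not overlap in 3 genes lower in Myc (Polr1a, Mybbp1a and Rrs1, 6.38% against 3.68%) and 1 higher (Wdr74, 2.13% against 4.21%). Without the 4 contracted libraries numbered 2 and 3, which leaves 1 library a group and assumes that it varies like the others, the median was 0.33 and 34 of 48 genes were above 0. The interaction of genotype and contraction gave 0 genes past the test, and 0 by DESeq2. Of all 6676 tested genes 331 had an unadjusted p under 0.05, 177 of them with a lower contraction change in Myc. Of the 47 members 13 did, all with a lower change in Myc. The interaction median of the members was -0.50 against -0.004 over all tested genes, and -0.05 without those 4 libraries.

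Within the animals, the mean log2 difference of the 47 genes between the contracted and the uncontracted leg was 0.18, 0.58 and 0.70 in control 1, 2 and 3 and 0.0925, 0.000143 and -0.00199 in Myc 1, 2 and 3. The genes higher in the contracted leg numbered 29, 40 and 42 of 47 in the controls and 26, 22 and 19 in the Myc animals, where 49.0 to 51.2% of all tested genes were. The largest of these 6 values were those of control 2 and 3. Myc reads in the contracted legs numbered 1, 10 and 59 in the controls and 32, 0 and 2 in the Myc animals. The leg differences start from unlike uncontracted legs. Control 1 held 0 Myc reads there and scored -0.290, and Myc 1 held 11 and scored 0.0684. Whether the differences follow Myc reads was not tested.

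A further list of 128 genes of the same pathway was read beside these, of which 85 were tested. It holds other RNA polymerase I, small-subunit, large-subunit, exosome and snoRNP assembly genes. None passed in control animals, where 21 of the 85 and 858 of all 6676 tested genes had an unadjusted p under 0.05. In the averaged contraction 4 of 85 rose, a share below the 5.71% of all tested genes. These were Polr2l (0.80 ± 0.22), Dnttip2 (1.10 ± 0.29), Ppan (0.93 ± 0.27) and Mdn1 (0.93 ± 0.25), which encode a shared polymerase subunit, a processome protein, a large-subunit factor and the AAA ATPase midasin. The list's median was 0.26 for contraction in control animals, 0.20 for Myc in uncontracted legs and 0.14 for the averaged contraction. Its exosome and snoRNP assembly genes had medians of 0.07, 0.23 and -0.09.

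Cytosolic ribosomal protein genes, 78 of which were tested, gave 0 calls in every comparison. For Myc in uncontracted legs 421 of all 6676 tested genes had an unadjusted p under 0.05, and 46 of the 78 did. Their median for Myc in uncontracted legs was 0.38, close to the 0.37 of the nucleolar genes, and the Myc libraries lay above all control libraries in 53 of 78 and below them in 0 (7.26% and 5.57% of all tested genes). For the averaged contraction it was 0.01, where that of the nucleolar genes was 0.23. In contracted Myc 2 and 3 the ribosomal protein score was -0.138 and -0.101, where uncontracted control 1, 2 and 3 had -0.347, -0.163 and -0.136 and uncontracted Myc had 0.236, 0.191 and 0.101, whereas the nucleolar score of 0.0555 and 0.00416 lay within or near the uncontracted Myc values. Whether these lists differ was not tested.

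Markers of other cell types were read because contraction may change the cells in the muscle, and in whole tissue fewer cells of a type and less RNA per cell cannot be told apart. The summed level of 8 neutrophil markers ran from 0 to 3.72 CPM in uncontracted control and from 0 to 0.638 in uncontracted Myc, against 7.33 to 72.1 and 4.91 to 56.0 in the contracted legs. The defining markers Csf3r, Cxcr2 and Ly6g had 0 reads in all 12 libraries. Of 5 tested macrophage markers Cd68 rose and Csf1r and C1qa fell in the averaged contraction, and all 4 tested haemoglobin genes rose. Of 5 tested smooth muscle and pericyte markers only Acta2 passed in that comparison. It fell by 0.55 on the log2 scale (edgeR adjusted p = 0.0116), while Pdgfrb was at 0.29 without passing. The 9 macrophage markers summed to 108 to 159 CPM in contracted control and 148 to 210 in uncontracted control, and the 8 endothelial markers to 144 to 154 and 164 to 188. In controls the macrophage ranges thus overlapped, and only the endothelial sums were apart. In Myc animals contracted and uncontracted legs overlapped in both lists. Their macrophage sums reached 139 CPM in contracted and 132 in uncontracted legs, and their endothelial sums ran from 165 to 175 and from 155 to 195. None of the 7 tested endothelial markers passed in the averaged contraction. The part of these cells in the nucleolar genes was not tested.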

How the data were processed

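Per the labels' protocols, RNA was taken with Trizol and made into QuantSeq 3' libraries. The authors deposited raw read counts. The submitters' processing notes list STAR 2.5.2a, HTSeq 0.6.0, FastQC 0.11.5, SAMtools and build mm10, with no role or order. Strand setting and annotation release are not given in the sources used here. Symbols came from a table of gene names, and coordinates from GENCODE M21 (GRCm38). The tests were made in R 4.3.3 by edgeR 4.0.16. Low genes were dropped by filterByExpr (minimum count 10), scaling was TMM, and 2-sided quasi-likelihood F tests compared 4 group means over 12 libraries. The threshold was 0.05 after Benjamini-Hochberg adjustment across 6676 genes. Each SE is the log2 change divided by the square root of F, so it restates the test. Scores used a prior count of 2. Legs of an animal are paired by the titles, and their deviations from group means correlated at -0.122 to 0.112. Each member that passed is named, with members of small p in each role. The members and lists were chosen with earlier results of these data known. Nothing beyond the numbering states that animals were raised apart, so p-values measure the spread between these samples. Of the 47 tested members 35 reached the count minimum in all 12 libraries, and Ddx10 in contracted libraries only. Alternatives were RLE scaling, DESeq2 1.42.0, other low-count filters, each library left out, the animal as a block, and the 4 libraries whose Myc reads go against their labels left out. The fits were tested on simulated counts.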

Additional observations from a re-analysis of the deposited data

How the results depend on the processing

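In control animals 7 genes passed, 11 without a low-count filter, 8 with the animal as a replicate block, 0 without the 4 contracted libraries numbered 2 and 3, and 2 to 12 without a single library. In the averaged contraction 7 passed, 4 by DESeq2, 6 with the replicate block, 0 without those 4 libraries, and 4 to 11 without a single library. Of the genes that passed with the block, 6 in control animals and 6 in the averaged contraction also passed without it. For contraction in Myc animals the count was 0, but 2 without a filter, and for Myc in uncontracted legs 0, but 2 without a filter and 1 without those 4 libraries. The fit without those 4 libraries has 1 contracted library a genotype, so its counts also reflect lost power and cannot be set against those without a single library: Rrs1 kept 0.77 of an averaged change of 0.82 while missing the threshold. The other counts stayed at 0 in each fit run, and the block changed no other count by over 1.5 times. Without those 4 libraries the averaged change of Rrn3 turned from 0.10 to -0.0118 and the contracted Myc difference of Rrp1b from -0.75 to 0.10, and the cause was not tested. RLE scaling and the stricter filter changed no count by over 1.5 times. Depth limits the 11 genes with at most 89 reads over 12 libraries.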
